A study of Homo sapiens with 16 samples.

Results

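Homologous recombination and Fanconi repair genes were followed across human T-cell acute lymphoblastic leukaemia (T-ALL) cells in which a long non-coding RNA was targeted. The set is 43 genes listed by symbol, taken as the rows of the deposited expression table with those symbols. All 43 were among its 57820 genes, and all 43 were expressed well enough to be tested. The list names genes of break repair and of its checkpoint signalling, so the label describes textbook function and was not itself measured.

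Homologous recombination repairs a DNA double-strand break by copying the intact sister chromatid. The broken ends are trimmed back to single strands, which are then paired with the matching sequence, a step that depends on BRCA2. The Fanconi anaemia pathway removes crosslinks between the DNA strands: a core ubiquitin ligase marks FANCD2 and FANCI, which call in nucleases, and recombination then completes the repair. Both pathways work mainly in cells that are replicating their DNA, as leukaemia cells in culture do, and inherited defects in them predispose to cancer.

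The lncRNA, called lnrCXCR4 in the labels, was targeted either by lentivirus carrying CRISPR components or by an antisense oligonucleotide (ASO) put into the culture at 1 uM. CUTLL1 and KOPTK1 cells each gave 1 library with a non-targeting guide and 2 with targeting guides, and again 1 library with a scrambled ASO and 2 with targeting ASOs. HPB-ALL cells gave 2 libraries with a non-targeting guide and 2 with targeting guides, and no ASO libraries. The 16 libraries thus form 5 experiments, with 6 control and 10 targeted libraries. The labels number the targeted libraries of an experiment both as guides or ASOs 1 and 2 and as replicates 1 and 2. Separate cultures are not mentioned for them, and the p-values below therefore describe the spread among these libraries alone, part of which may be technical. The lncRNA itself was not analysed here, as the table has 0 entries under its name.

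Values are the authors' normalised read counts, from libraries of 34547469 to 72178929 recovered reads. T-cell identity was present in all 16 libraries, with CD3E at 30467 to 32132 normalised counts in controls and 9738 to 14196 in targeted libraries. The 7 myeloid markers summed to at most 67.0 counts in any library and the 6 erythroid markers to at most 20.4, with the myeloid gene CD33 at 0 in all 16. The 7 B-lineage markers summed to 362 to 2673 in controls and 166 to 576 in targeted libraries, and the 3 of them that could be tested fell. Of 10 T-lineage markers, 9 fell in the joint comparison described below (median log2 fold change -1.02), and their summed level ran from 176028 to 214879.8 in controls and from 99609.6 to 153744 in targeted libraries. Genes of S phase and mitosis, which rise and fall with proliferation, also moved: 13 of 24 S-phase genes rose and 6 fell (median 0.22), and 19 of 22 mitosis genes rose and 2 fell (median 0.31). Among all genes tested in that comparison, 36.2% rose and 38.8% fell (median -0.03). Mitochondrial transcripts took 1.84% to 2.48% of counts in controls and 2.46% to 3.25% in targeted libraries. In such bulk samples fewer cells of a type and less RNA per cell cannot be told apart, and the part of these shifts in the results below was not tested. The KOPTK1 library with guide 1 stood apart in fibroblast genes, with COL1A1 at 426 against at most 52.5 elsewhere, and without it the joint counts of members were again 23 rising and 13 falling. The epithelial and fibroblast markers together summed to 222 and 250 in the HPB-ALL controls and to 27.1 and 27.7 in its targeted libraries. CDH1, an epithelial gene among them, reached 204 in controls and 7.18 in targeted libraries.

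Guide libraries were close to the ASO libraries of the same line. Between 2 libraries, the mean chi-square per gene is 1 when they differ by counting noise alone. It was 168 to 305 between control and targeted libraries of a line and 2.34 to 6.75 between libraries of the same arm and modality. Between guide and ASO libraries of the same arm it was 1.73 to 5.10 in CUTLL1 and 3.79 to 14.5 in KOPTK1. The modalities thus differed far less than the arms did. Whether they were cultured separately is not given in the sources used here.

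Most members changed, with rises outnumbering falls. Fold changes are on the log2 scale, targeted over control, each with a standard error (SE) and a limma p adjusted by Benjamini-Hochberg over all genes tested, with 0.05 as the threshold. Over all 16 libraries (the joint comparison, 10 targeted against 6 control) 23 members rose and 13 fell, so 36 of 43 were called. That is to be read against 75% of all 14020 genes tested, of which 36.2% rose and 38.8% fell. With quantile scaling 75.8% of all genes were called and the order of the background turned, to 43.1% up and 32.7% down, while 24 members rose and 13 fell. As deposited, the median log2 fold change was 0.13 for the members and -0.03 for all genes. With guides alone 21 members rose and 13 fell (background 67.7% called, 32.7% up and 35% down), and with ASOs alone 22 rose and 11 fell (background 65% called, 31.8% up and 33.2% down). The members' medians were 0.13 with guides and 0.14 with ASOs, beside -0.03 and -0.01 for all genes. Change in either direction was thus common everywhere in these libraries. With each line and arm reduced to 1 mean, guides and ASOs pooled, 15 members rose and 10 fell, against 49.4% of all genes called (23.8% up, 25.7% down). The 11 calls lost there were BRCA1, BARD1, RAD51C, XRCC2, RBBP8, FANCA, FANCC, FANCG, CHEK1, CHEK2 and EME1.

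**Figure D1:**
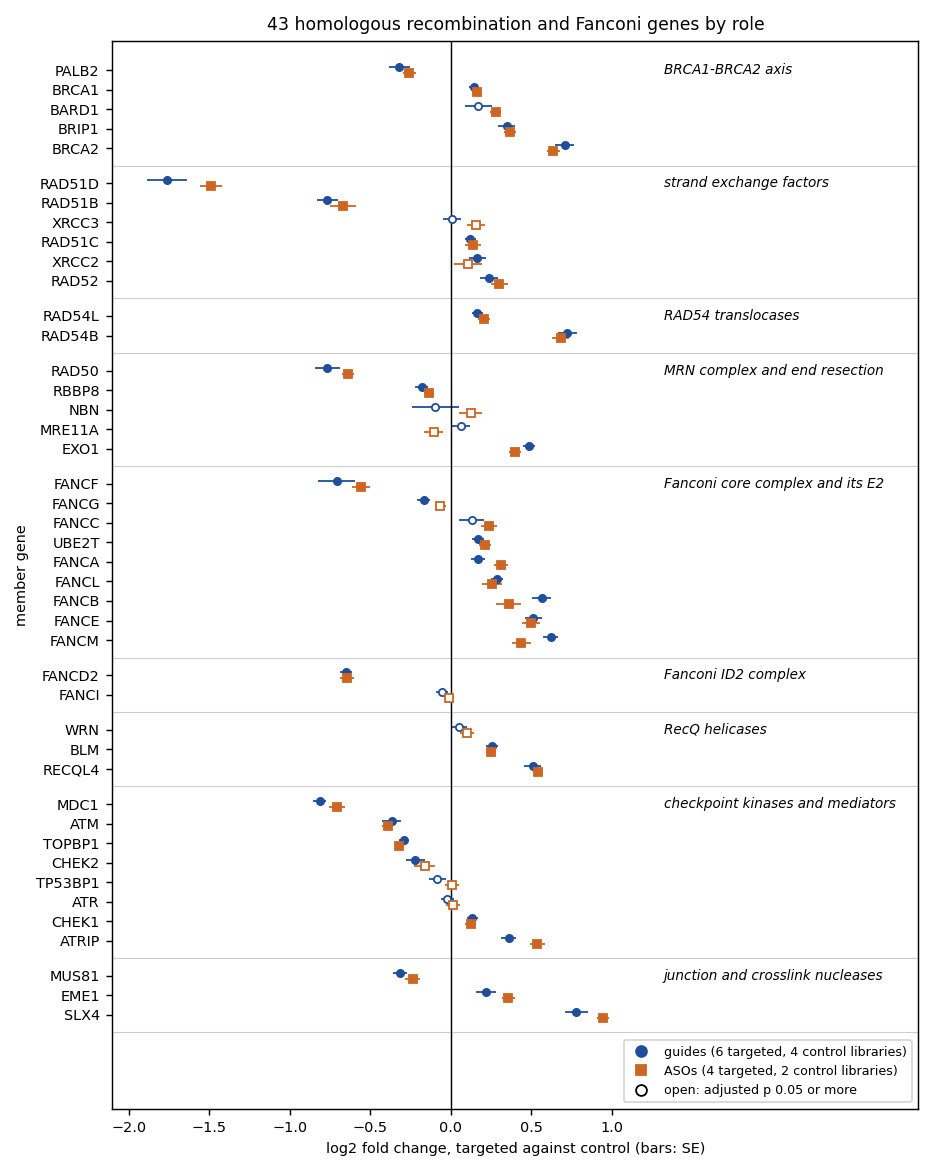
Log2 fold change of each of the 43 members, by role, with guides (circles) and ASOs (squares); bars are SE, and open symbols did not pass the threshold. RAD51D stands alone at the left in both modalities, and SLX4 is the rightmost gene.

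Of the 36 joint calls, 32 had all 10 targeted libraries on the same side of their own controls, 20 above and 12 below. Among all genes tested, 28.6% were called with every targeted library above and 30.6% with every one below. The values of all 6 controls and all 10 targeted libraries did not overlap for 11 of 43 members (17.3% of all genes tested). These were BRCA2, RAD54B, FANCB and FANCM, which rose, and PALB2, RAD51B, RAD51D, RAD50, FANCF, TOPBP1 and MDC1, which fell. Within lines, the 2 arms did not overlap in any of the 3 lines for 35 members, in 2 lines for 6 and in 1 line for 2. The arms stood apart in all 3 lines for 60.5% of all genes tested, too. Values below are given by line, with guide libraries before ASO libraries.

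Of the 5 genes of the BRCA1-BRCA2 axis, 4 rose in the joint comparison and PALB2 fell (background 36.2% up and 38.8% down). BRCA2, which prepares single-stranded DNA for strand exchange, had control values of 5104 and 5269 in CUTLL1, 4614 and 4590.3 in KOPTK1 cells, and 4484 and 4264 in HPB-ALL. Its targeted libraries held 7878, 8623, 7924 and 7736 in CUTLL1, 7893, 8839, 7359.8 and 7532 in KOPTK1 cells, and 6299 and 7114 in HPB-ALL. Every targeted library lay above all 6 controls, and the joint log2 fold change was 0.68 (SE 0.042, adjusted p 3.2e-09).

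BRCA1, the ubiquitin ligase and scaffold that favours end trimming, moved far less. Its controls held 9073 and 9026 in CUTLL1, 8194 and 7682 in KOPTK1 cells, and 7263 and 7078 in HPB-ALL. The targeted libraries stood at 9907, 10417, 9915 and 9934 in CUTLL1, 8865, 9035, 8641 and 8773 in KOPTK1 cells, and 7809.9 and 7951 in HPB-ALL. All 10 were above the controls of their own line and modality, but the groups overlapped across lines. The joint change was 0.15 (SE 0.019, adjusted p 6.57e-06), and it did not pass when each line and arm was reduced to 1 mean (adjusted p 0.059). The rise was of similar size in each experiment, between 0.13 and 0.18.

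BRIP1, the helicase that binds BRCA1, differed more between lines than between arms. Control libraries held 4123 and 4353 in CUTLL1, 5456 and 5415 in KOPTK1 cells, and 1629 and 1595 in HPB-ALL. With targeting the values were 5467, 5560.3, 5529.6 and 5335 in CUTLL1, 7382, 7769, 7099.6 and 7296 in KOPTK1 cells, and 1786 and 1965 in HPB-ALL. HPB-ALL was lowest in both arms, and in each line the targeted libraries lay above the controls (joint change 0.35, SE 0.036, adjusted p 5.89e-07). BARD1, the RING partner of BRCA1, rose by 0.21 in the joint comparison, with 8 of 10 targeted libraries above their controls. It did not pass with guides alone (0.17, adjusted p 0.091) and was called lower in HPB-ALL (-0.09, adjusted p 0.0478). PALB2, which bridges BRCA1 to BRCA2, went the other way, from 2061 to 2579.5 in controls to 1727 to 1899 in targeted libraries (joint change -0.30, SE 0.043, adjusted p 2.15e-05).

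RAD51D and RAD51B fell, and RAD51C and XRCC2 rose slightly in the joint comparison. Their products, with that of XRCC3, work together in small complexes that assist strand exchange. RAD51D had control values of 1125 and 1157 in CUTLL1, 1209 and 1232 in KOPTK1 cells, and 1069 and 990.4 in HPB-ALL. After targeting they were 412, 444, 425 and 435 in CUTLL1, 401, 417, 406 and 434 in KOPTK1 cells, and 227 and 238 in HPB-ALL. No targeted library came near a control, and HPB-ALL with guides was lowest. The joint change of RAD51D was the largest fall among the members, -1.66 (SE 0.090, adjusted p 8.52e-10).

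RAD51B held 808 and 737 in CUTLL1, 636 and 669 in KOPTK1 cells, and 548 and 529 in HPB-ALL in controls. Its targeted values were 489.9, 452, 448 and 506 in CUTLL1, 417, 405, 423 and 395 in KOPTK1 cells, and 295 and 301 in HPB-ALL. Again no targeted library reached any control, and the joint change was -0.73 (SE 0.049, adjusted p 6.9e-09). RAD51C rose by 0.13 and XRCC2 by 0.14 in the joint comparison, the latter with 7 of 10 targeted libraries above their controls, and XRCC3 did not pass (0.06, adjusted p 0.239). XRCC2 did not pass with ASOs alone (0.11, adjusted p 0.31), and its estimates in CUTLL1 were -0.01 with guides and -0.09 with ASOs. The joint call of XRCC2 did not hold without the guide control of KOPTK1 (adjusted p 0.0548) or without its ASO control (0.0729). Either omission takes that experiment out of the estimate, as it has no other control. For XRCC3, 76.7% of the exon bases are shared with KLC1 on the opposite strand, and whether strand was used in counting is not given in the sources used here. RAD52, which anneals single strands, rose by 0.26, with all 10 targeted libraries above their controls. RAD51D also shares 8.0% of its exon bases with a readthrough gene, RAD51L3-RFFL, which was listed at 0 in these libraries.

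The promoters of the largest riser and of the 2 members that fell furthest are shown for reference, as the 250 bases before each RefSeq start (GRCh38.p14), 5' to 3' on the gene's strand. SLX4 lies at chr16:3611607-3611856, RAD51D at chr17:35119759-35120008 and MDC1 at chr6:30717282-30717531, all on the minus strand.
SLX4: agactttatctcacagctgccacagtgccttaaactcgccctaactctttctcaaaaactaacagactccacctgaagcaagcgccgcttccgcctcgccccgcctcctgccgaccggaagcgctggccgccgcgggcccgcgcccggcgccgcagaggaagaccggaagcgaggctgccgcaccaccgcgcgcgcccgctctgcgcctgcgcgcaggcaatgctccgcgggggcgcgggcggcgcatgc
RAD51D: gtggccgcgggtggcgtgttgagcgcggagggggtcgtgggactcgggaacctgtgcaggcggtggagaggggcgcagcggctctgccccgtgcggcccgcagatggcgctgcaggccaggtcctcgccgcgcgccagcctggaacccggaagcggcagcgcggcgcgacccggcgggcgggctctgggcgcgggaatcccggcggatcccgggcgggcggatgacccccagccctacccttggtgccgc
MDC1: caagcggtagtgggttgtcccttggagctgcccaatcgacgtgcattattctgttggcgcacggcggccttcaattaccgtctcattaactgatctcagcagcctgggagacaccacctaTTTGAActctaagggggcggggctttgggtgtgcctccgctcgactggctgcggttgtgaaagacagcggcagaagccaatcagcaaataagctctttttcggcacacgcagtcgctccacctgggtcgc
Capitals mark TTTGAA, the core of the CHR element of late cell cycle promoters. It was searched on both strands, along with the E2F-type motif TTTNNCGC of S-phase promoters and the E-box CACGTG, neither of which occurs in the windows shown. Of 37 members with a promoter in the table, 5 held TTTGAA (13.5%), 3 held TTTNNCGC (8.11%) and 1, BRCA2, held CACGTG (2.70%). The shares among all 27305 promoters were 13.6%, 5.93% and 6.49%. TTTGAA stood before 3 of the 21 matched members that rose and 2 of the 13 that fell. A match is a description of these letters only.

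Both RAD54 translocases, motor proteins that drive strand invasion, rose. RAD54B had control values of 577 and 579 in CUTLL1, 714 and 699 in KOPTK1 cells, and 493 and 441 in HPB-ALL. Targeted libraries held 902, 889.6, 918 and 939 in CUTLL1, 1171, 1288, 1113 and 1129 in KOPTK1 cells, and 757 and 804 in HPB-ALL. The arms did not overlap in any line or across lines, and the joint change was 0.71 (SE 0.039, adjusted p 9.89e-10). The gene shares 59.1% of its exon bases with FSBP on the same strand, which averaged 2.0 counts in controls and 2.1 in targeted libraries. RAD54L rose by less, 0.18, with all 10 targeted libraries above their controls. LRRC41 covers 25.1% of its exon bases on the opposite strand.

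The genes of break recognition and end trimming split. Of 5, 1 rose and 2 fell in the joint comparison (background 36.2% up and 38.8% down). The MRE11-RAD50-NBN complex binds broken ends and activates ATM, and its 3 subunits did not move together. RAD50, the arm of the complex that tethers the ends, had control values of 5906 and 5885 in CUTLL1, 6221 and 6013 in KOPTK1 cells, and 8005 and 8218 in HPB-ALL. Targeted values were 4006, 4120.2, 3782 and 3804 in CUTLL1, 4033, 4135, 3736 and 3949 in KOPTK1 cells, and 3903 and 4080.0 in HPB-ALL. Controls of HPB-ALL were the highest, whereas targeted libraries of all lines lay between 3736 and 4135. The joint change of RAD50 was -0.72 (SE 0.056, adjusted p 3.21e-08). AC116366.3, a gene model on the same strand that was not analysed here, shares 79.7% of the exon bases of RAD50, and reads there cannot be assigned with certainty.

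NBN, the subunit that recruits ATM, behaved differently in each line. Its controls held 3958 and 4197 in CUTLL1, 4244 and 4386 in KOPTK1 cells, and 6947 and 6910.2 in HPB-ALL. Its targeted libraries stood at 5236, 5428, 5162 and 5054 in CUTLL1, 4574, 4580.1, 4231 and 4326 in KOPTK1 cells, and 4505 and 4734 in HPB-ALL. They were above controls in CUTLL1 and below them in HPB-ALL, and in KOPTK1 they were above with guides and slightly below with ASOs. The joint estimate of NBN, -0.02 (adjusted p 0.89), averages over these directions. MRE11A, the nuclease of the complex, had a joint estimate near 0 (-0.0009, adjusted p 0.988).

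EXO1, the exonuclease that extends the trimming, rose in every experiment. Control values were 6715 and 6799.8 in CUTLL1, 6068 and 6218 in KOPTK1 cells, and 3987 and 4085 in HPB-ALL. The targeted libraries had 8566, 9001, 8469 and 8784 in CUTLL1, 8930.0, 8774, 8539 and 8469 in KOPTK1 cells, and 5656 and 5832 in HPB-ALL. Within each line the arms stood apart, while targeted HPB-ALL libraries remained below the controls of the other lines (joint change 0.45, SE 0.028, adjusted p 3.06e-09). RBBP8, the factor that starts the trimming, fell slightly (-0.17).

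**Figure D2:**
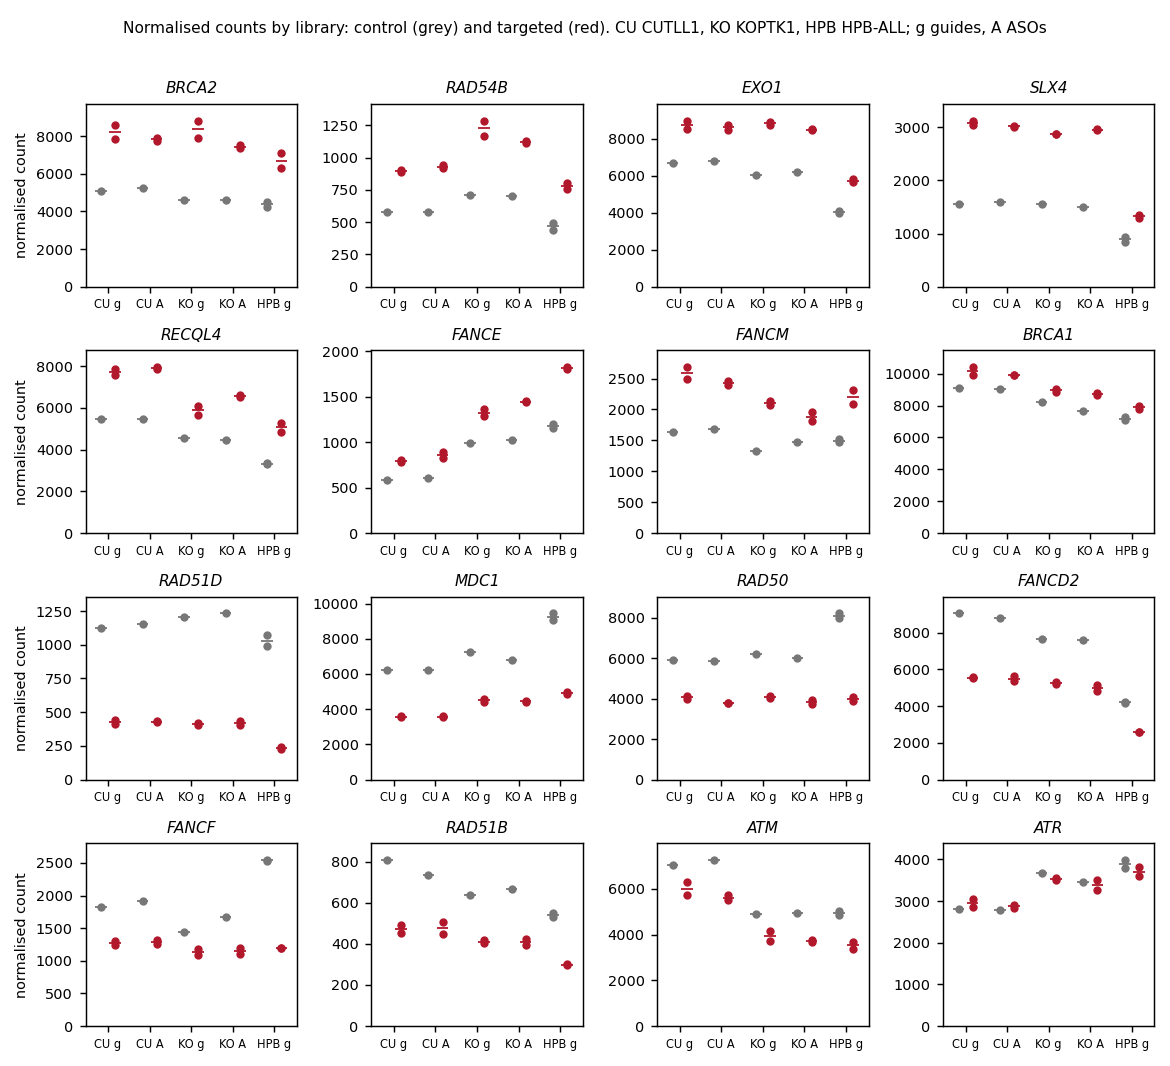
Normalised counts of 16 members in every library, control in grey and targeted in red, with the mean as a bar, by line and modality; each axis starts at 0. BRCA2, RAD54B and FANCM rise and RAD51D, MDC1 and RAD50 fall in every experiment, while ATR shows arms that overlap or nearly so.

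Of the 9 Fanconi core genes, 7 rose and 2 fell in the joint comparison (background 36.2% up and 38.8% down). FANCM, the translocase that anchors the core complex on DNA, had control values of 1627 and 1684 in CUTLL1, 1326 and 1478 in KOPTK1 cells, and 1524 and 1466 in HPB-ALL. In targeted libraries it stood at 2498, 2687, 2391 and 2458 in CUTLL1, 2073, 2137, 1811 and 1957 in KOPTK1 cells, and 2085 and 2309 in HPB-ALL. All 10 lay above all 6 controls, with a joint change of 0.55 (SE 0.043, adjusted p 3.88e-08). FANCE, which links the core complex to FANCD2, held 582 and 609 in CUTLL1, 995 and 1022 in KOPTK1 cells, and 1156 and 1194 in HPB-ALL in controls. Targeting brought values of 777, 799, 890.1 and 825 in CUTLL1, 1361, 1288, 1437 and 1449 in KOPTK1 cells, and 1802 and 1825 in HPB-ALL. It rose in each line from different starting levels, HPB-ALL being highest and CUTLL1 lowest in both arms (joint change 0.50, SE 0.037, adjusted p 1.69e-08).

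FANCF, the adaptor of the core complex, fell. Controls held 1821 and 1917 in CUTLL1, 1444 and 1675 in KOPTK1 cells, and 2545 and 2532 in HPB-ALL. The targeted libraries had 1299, 1246, 1323 and 1258 in CUTLL1, 1092, 1186, 1099 and 1199.7 in KOPTK1 cells, and 1199.9 and 1197 in HPB-ALL. These targeted values, 1092 to 1323, lay within a narrow band below every control, and the joint change was -0.65 (SE 0.080, adjusted p 4.19e-06). GAS2 covers 11.3% of the exon bases of FANCF on the opposite strand and averaged 381 counts in controls and 73.6 in targeted libraries.

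The other core genes changed by less. FANCB, a subunit of the ligase module, rose by 0.49, from 558 to 765 in controls to 846 to 1018 in targeted libraries. FANCL, the ubiquitin ligase itself, rose by 0.28 and UBE2T, its partner conjugating enzyme, by 0.18. FANCA rose by 0.22 and FANCC by 0.17, the latter with 8 of 10 targeted libraries above their controls. FANCC did not pass with guides alone (0.13, adjusted p 0.165) and was called lower in HPB-ALL (-0.09, adjusted p 0.0448). It lost its joint call without the lone guide control of CUTLL1 (adjusted p 0.0591), an omission that takes that experiment out of the estimate. FANCG fell by 0.13, which did not pass with ASOs alone (-0.06, adjusted p 0.13). On the opposite strand, ZNF276 covers 23.6% of the exon bases of FANCA and VRK2 covers 18.7% of those of FANCL.

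Of the FANCD2-FANCI pair, the substrate of the core ligase, FANCD2 fell and FANCI did not pass the test. FANCD2 had control values of 9039 and 8817 in CUTLL1, 7628 and 7619 in KOPTK1 cells, and 4245 and 4158 in HPB-ALL. Targeted libraries stood at 5505, 5565, 5349 and 5651 in CUTLL1, 5206, 5328, 4846 and 5172 in KOPTK1 cells, and 2598 and 2586 in HPB-ALL. In each line they lay far below the controls, and the joint change, -0.65 (SE 0.028, adjusted p 7.89e-11), had the smallest p of all members. FANCI controls held 18358 and 18699 in CUTLL1, 10144 and 9925 in KOPTK1 cells, and 19321 and 19026 in HPB-ALL. Its targeted values were 18318, 18910.1, 18289 and 18769 in CUTLL1, 10258, 10335, 10006 and 9759 in KOPTK1 cells, and 17049 and 17411 in HPB-ALL. They straddled the controls in CUTLL1 and KOPTK1 and lay below them in HPB-ALL, with a joint estimate of -0.04 (adjusted p 0.199). POLG, which rose from a mean of 7915 to 16987 counts, covers 5.90% of the exon bases of FANCI on the opposite strand.

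The RecQ helicases, which unwind recombination intermediates, rose or did not pass. RECQL4, the gene of Rothmund-Thomson syndrome, had control values of 5450.1 and 5458 in CUTLL1, 4581 and 4479 in KOPTK1 cells, and 3357 and 3298 in HPB-ALL. Targeted libraries held 7869, 7576, 7961 and 7866 in CUTLL1, 6115, 5680.3, 6620.5 and 6503 in KOPTK1 cells, and 5297 and 4834 in HPB-ALL. Each stood above the controls of its line (joint change 0.52, SE 0.033, adjusted p 4.61e-09). BLM, the Bloom syndrome helicase, rose by 0.25, and WRN, the Werner syndrome helicase, did not pass (0.07, adjusted p 0.0699), though it passed without either HPB-ALL control (0.0429 and 0.0489) or without HPB-ALL with guide 1 (0.0238).

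Checkpoint genes moved in both directions, 2 rising and 4 falling of 8 in the joint comparison (background 36.2% up and 38.8% down). MDC1, the mediator that binds phosphorylated histone H2AX beside a break, had control values of 6248 and 6239 in CUTLL1, 7258 and 6795 in KOPTK1 cells, and 9435 and 9067 in HPB-ALL. With targeting they were 3579.6, 3584, 3536 and 3599 in CUTLL1, 4584, 4402, 4412 and 4487 in KOPTK1 cells, and 4991 and 4884 in HPB-ALL. Every targeted library was below all 6 controls, and the joint change was -0.78 (SE 0.035, adjusted p 1.26e-10). HPB-ALL had the highest values in both arms.

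ATM, the kinase that answers double-strand breaks, fell. Controls held 7042 and 7262 in CUTLL1, 4882 and 4940.4 in KOPTK1 cells, and 5040.1 and 4872 in HPB-ALL. Its targeted libraries had 5709.6, 6285, 5712 and 5522 in CUTLL1, 3697, 4172, 3655 and 3767 in KOPTK1 cells, and 3389.9 and 3661 in HPB-ALL. Within each line no targeted library reached a control, but CUTLL1 targeted libraries lay above the controls of the other lines (joint change -0.38, SE 0.040, adjusted p 9.48e-07). ATR, the kinase that answers stalled replication, was the only member called in none of the 5 experiments (12% of all genes tested). ATR controls held 2808 and 2775 in CUTLL1, 3663 and 3455 in KOPTK1 cells, and 3987 and 3787 in HPB-ALL. Targeted values of ATR were 2863, 3058, 2904 and 2842 in CUTLL1, 3515, 3554, 3274 and 3515 in KOPTK1 cells, and 3590.2 and 3826 in HPB-ALL. The joint estimate was -0.01 (SE 0.030, adjusted p 0.773), and 5 of 10 targeted libraries were above their controls.

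ATRIP, the obligate partner of ATR, rose. Its controls held 1067 and 971 in CUTLL1, 1309.7 and 1286 in KOPTK1 cells, and 465 and 471 in HPB-ALL. Targeted libraries held 1387, 1337, 1399.6 and 1472 in CUTLL1, 1831, 1669.8, 1844 and 1818 in KOPTK1 cells, and 592 and 581 in HPB-ALL. HPB-ALL had the fewest counts in both arms, and all 10 targeted libraries lay above their controls (joint change 0.42, SE 0.039, adjusted p 2.23e-07). TREX1 shares 27.9% of ATRIP's exon bases on the same strand, and TREX1 averaged 824 counts in controls and 1023 in targeted libraries. Reads in the shared part cannot be assigned with certainty.

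CHEK1, the kinase below ATR, rose by 0.13, while CHEK2, the kinase below ATM, fell by 0.20 with 1 of 10 targeted libraries above its control. TOPBP1, an activator of ATR, fell by 0.30, from 13397 to 15457 in controls to 10587 to 12574 in targeted libraries. TUBGCP4 covers 28.7% of the exon bases of TP53BP1 on the opposite strand. TP53BP1, which shields broken ends from trimming, did not pass (-0.05, adjusted p 0.237). It passed without the lone CUTLL1 guide control (-0.09, adjusted p 0.0494), an omission that takes that experiment out of the estimate.

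The nucleases that cut crosslinks and joint molecules split. SLX4, the scaffold on which several of them assemble, was the largest riser, with control values of 1561 and 1595 in CUTLL1, 1563 and 1507 in KOPTK1 cells, and 934 and 849 in HPB-ALL. Its values with targeting were 3130.2, 3045, 3003 and 3032 in CUTLL1, 2872, 2872, 2943 and 2966 in KOPTK1 cells, and 1356 and 1296 in HPB-ALL. They were higher in every experiment, although targeted HPB-ALL libraries stayed below the CUTLL1 and KOPTK1 controls (joint change 0.84, SE 0.052, adjusted p 3.55e-09). EME1 rose by 0.27, and MUS81, its catalytic partner, fell by 0.29. LRRC59, which averaged 12658 counts in controls, covers 16.4% of the exon bases of EME1 on the opposite strand. MUS81 shares 13.9% of its exon bases with CFL1 on the opposite strand, which averaged 55393 counts in controls and 81337 in targeted libraries.

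Per experiment, each fitted from 10 group means over all 16 libraries with lone controls assumed to vary like the other groups, the calls of the members ran as follows. In CUTLL1 with guides 24 members rose and 12 fell, against a background of 62.3% of genes called (30.8% up, 31.5% down). With ASOs in that line 23 rose and 13 fell (62.3%, 30.5% and 31.8%). KOPTK1 had 24 rising and 13 falling with guides (64.1%, 31% and 33.1%) and 24 and 11 with ASOs (63.4%, 30.6% and 32.8%). In HPB-ALL 19 rose and 18 fell (70.9%, 34% and 36.9%). Rises outnumbered falls in the CUTLL1 and KOPTK1 experiments and were about equal to falls in HPB-ALL, a difference in counts that was not itself tested.

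The members called in the same direction in all 5 experiments were 16 that rose and 11 that fell, where 19.8% of all genes tested rose and 20.8% fell in all 5. The 16 were BRCA1, BRIP1, BRCA2, RAD54L, RAD54B, EXO1, FANCB, FANCE, FANCL, FANCM, UBE2T, BLM, RECQL4, ATRIP, CHEK1 and SLX4. The 11 were PALB2, RAD51B, RAD51D, RAD50, RBBP8, FANCF, FANCD2, ATM, TOPBP1, MDC1 and MUS81. Another 5 (5.8% of all genes tested) were called in both directions: BARD1, MRE11A, NBN, FANCC and TP53BP1.

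**Figure D3:**
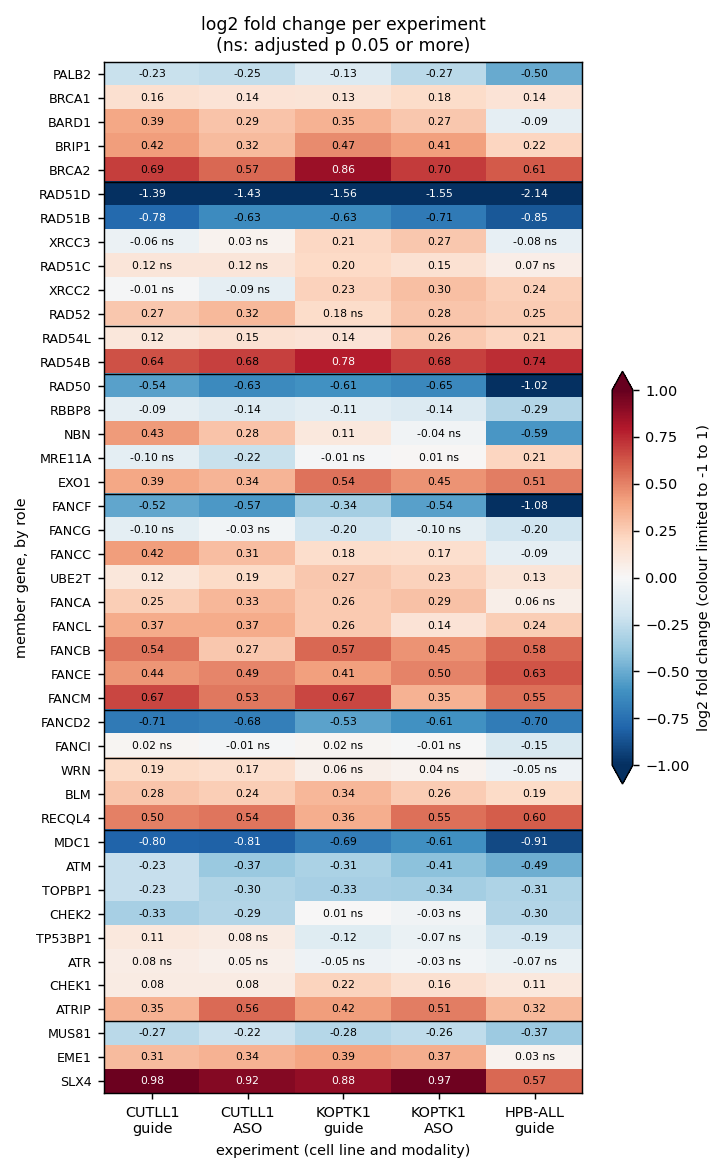
Log2 fold change of each member (rows, by role) in each of the 5 experiments (columns), red for higher and blue for lower in targeted libraries, with colour limited to -1 to 1 and values printed. BARD1 and FANCC are blue in the HPB-ALL column alone, and NBN is bluest there, at -0.59.

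The size of the guide effect differed between the 3 lines for 22 of 43 members (F test in limma, background 43.7% of genes). HPB-ALL had the lowest estimate of the 3 in 17 of these 22, the highest in 3 and the middle one in 2. This order was not counted over all genes. NBN differed most (F 216, adjusted p 2.77e-07), at 0.43 in CUTLL1, 0.11 in KOPTK1 and -0.59 in HPB-ALL, each past the threshold. RAD50 fell in all 3 lines, by 0.54, 0.61 and 1.02 (F 45.7, adjusted p 8.67e-05). FANCF fell by 0.52 in CUTLL1, 0.34 in KOPTK1 and 1.08 in HPB-ALL (F 41.4, adjusted p 0.000125).

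For those 3 genes the lines were closer together after targeting. The highest line exceeded the lowest by 1.70-fold for NBN in controls and by 1.18-fold in targeted libraries. For RAD50 the ratio went from 1.38-fold to 1.02-fold, and for FANCF from 1.63-fold to 1.12-fold. This was not a feature of the set: the spread between lines was narrower after targeting for 20 of 43 members (46.5%) and for 47.7% of all genes tested.

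**Figure D4:**
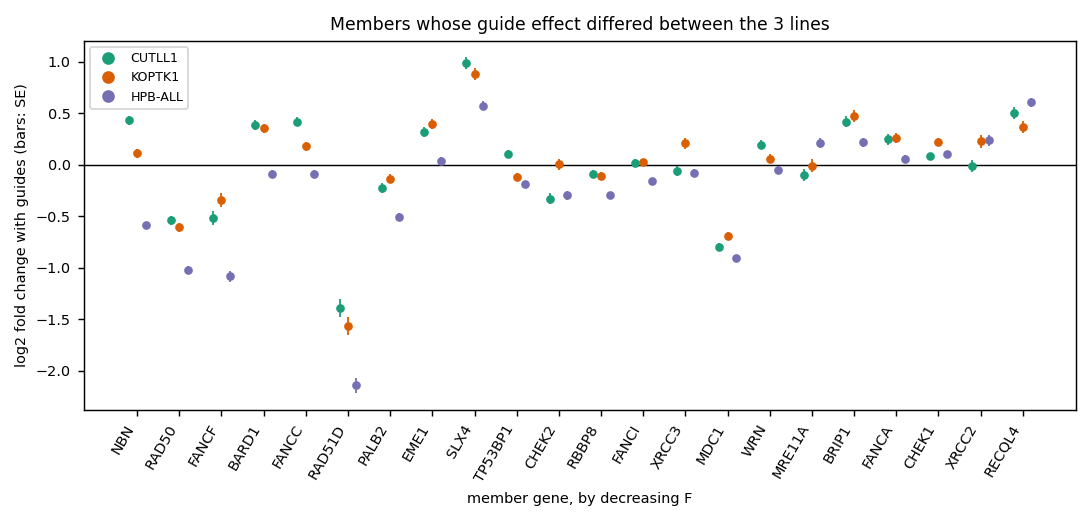
Log2 fold change with guides in CUTLL1, KOPTK1 and HPB-ALL for the 22 members whose effect differed between lines, ordered by decreasing F; bars are SE. HPB-ALL points lie lowest for most genes, and NBN spans from 0.43 to -0.59.

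In control libraries the lines already differed. Among the 6 control libraries, 2 per line with guide and ASO controls pooled, 42 of 43 members differed between lines (F test in limma, background 92.7%). FANCB alone did not pass (adjusted p 0.0504). The median ratio of the highest to the lowest line was 1.5-fold. The highest level was in CUTLL1 for 18 members, in HPB-ALL for 14 and in KOPTK1 for 11, and HPB-ALL was lowest for 22. These orders were not counted over all genes.

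Ratios above 2-fold were found for 3 members. BRIP1 averaged 5436 counts in KOPTK1 and 1612 in HPB-ALL, a 3.37-fold difference. ATRIP was 2.77-fold higher in KOPTK1 than in HPB-ALL (1298 against 468). FANCD2 was 2.13-fold higher in CUTLL1 than in HPB-ALL (8928 against 4201). FANCI was instead lowest in KOPTK1, with 19174 in HPB-ALL, 18528 in CUTLL1 and 10034 in KOPTK1. The FANCD2-FANCI partners thus had different orders of lines.

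Guides and ASOs gave similar values in the lines that had both. In CUTLL1 and KOPTK1 together, no member (0 of 43) and no gene (0 of 14020) differed between modalities in limma after adjustment. At an unadjusted p under 0.05 there were 1393 genes, 3 of them members. These were NBN, with a difference of 0.15 (95% interval 0.06 to 0.23), FANCM, with 0.23 (0.07 to 0.39), and ATRIP, with -0.15 (-0.30 to -0.01). The intervals of the other 40 included 0, and reached a median of 0.11 to either side on the log2 scale. For SLX4 the difference was -0.01 (-0.14 to 0.11), and for RAD51D it was 0.01 (-0.18 to 0.20).

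**Figure D5:**
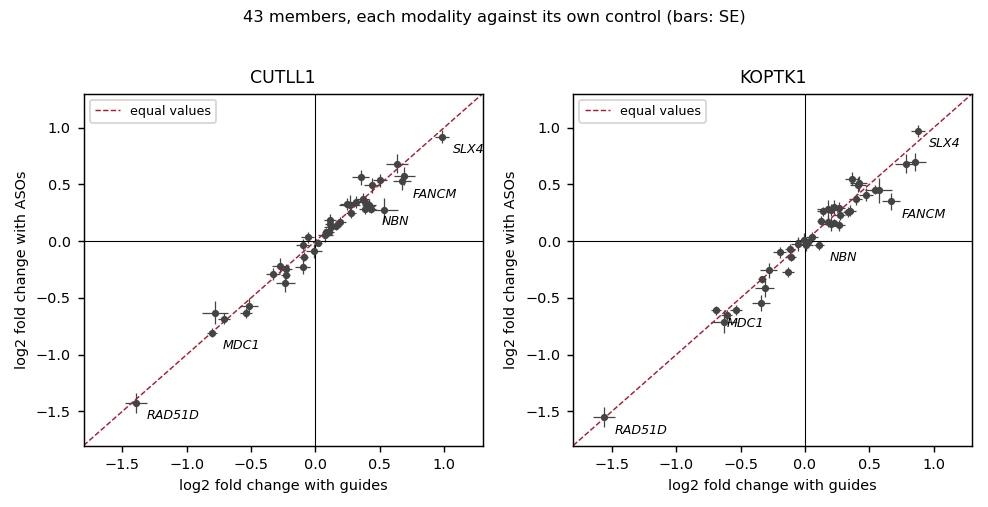
Log2 fold change with ASOs (vertical) against guides (horizontal) for the 43 members in CUTLL1 and KOPTK1, each modality against its own control library; bars are SE and the dashed line marks equal values. RAD51D and SLX4 lie at the ends of the line in both panels, and FANCM lies below it.

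Levels per length placed the members in a wide order. Normalised counts per kilobase of exon (GENCODE v29, GRCh38, exon bases matched by symbol for 42 members) averaged 3659.6 for UBE2T and 2049 for FANCI in controls, the highest of the set. RAD51B, at 87.5, was the lowest, followed by RAD51D. The length was the union of all annotated exons of a gene, 7477 bases for RAD51B and 11304 for RAD51D. The order thus depends on the annotation as well as on the counts. In targeted libraries UBE2T was again highest, at 4049.6, and RAD51D was lowest, at 34.0. SLX4 moved from 155 to 309 per kilobase and BRCA2 from 385 to 629.

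Other genes of the same pathways, listed apart from the 43, were divided too. Of 34, 33 were tested and 16 rose while 10 fell in the joint comparison (median 0.04). Among all genes tested there, 36.2% rose and 38.8% fell (median -0.03). H2AFX, the histone variant that is phosphorylated at breaks, rose by 1.09. HELQ, a helicase of crosslink repair, rose by 0.66, and RNF168, a ubiquitin ligase at breaks, by 0.63. Of 9 genes of the checkpoint clamp and fork protection, 5 rose and 3 fell (median 0.21). CLSPN, the adaptor between ATR and CHEK1, rose by 0.87 and TIMELESS, its fork partner, by 0.39, while WEE1, the kinase that restrains mitotic entry, fell by 0.29.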

How the data were processed

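RNA was measured in 16 libraries of 3 T-ALL lines. The deposited table holds a signal in normalised read counts made by the authors. Each column is whole reads over 1 factor, since 100% of values were whole multiples of its smallest within 1e-06. The submitters' processing notes name STAR (version 1.4.2), DESeq2 and the build hg19 but not what each did. How reads were assigned to genes, by which annotation and with which strand setting is not given in the sources used here, although the kit was directional per the labels' protocols.

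limma (version 3.58.1, in R 4.3.3) was fitted to log2(normalised count + 1) with trended empirical Bayes moderation. Genes needed a mean of at least 20 over the fitted libraries. On this scale low genes show too small a fold change. The guide comparison took 10 libraries and the ASO comparison 6, each with cell line as a term, and the joint comparison took all 16 with experiment as a term. A model of 10 group means gave the single experiments, the line difference and the contrast of guides with ASOs. The control line test took the 6 control libraries. The fits were tested on simulated counts with known changes.

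The members and gene lists were chosen with earlier results of these data known. Values per library are given for BRCA1, BRCA2, FANCD2, FANCI, ATM and ATR, for the 6 largest rising and 6 largest falling joint calls with all targeted libraries on the same side, for the 3 smallest p of the line difference, of guides minus ASOs and of control lines, and for the smallest joint p of each of the 9 roles. From each other list up to 3 called genes with the smallest joint p are named, except any not reported here. Alternatives were a pseudocount of 5, a minimum mean of 100 or none, scaling by median of ratios or by quantiles, a block on replicate number, leaving out each library, and edgeR (4.0.16) and DESeq2 (1.42.0) on recovered reads. These last used at most 15 libraries, since the first targeted ASO library of CUTLL1 has a read step too close to 1 to be checked. A fit on 1 mean per line and arm was added after seeing the data. Chi-square distances used genes with 50 or more reads in the pair. Exon lengths and overlaps came from GENCODE v29 (GRCh38) by symbol, and not every overlap is named. Promoters came from RefSeq (GRCh38.p14), which held 37 members.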

Additional observations from a re-analysis of the deposited data

Results flagged for a closer look

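The guide effect differed between the 3 lines, by limma's F test at an adjusted p under 0.05, for the 22 members named here with their F values. Of these 22, 18 passed again with quantile scaling and 17 without a filter. All 22 did with a pseudocount of 5, a minimum mean of 100 or median-of-ratios scaling. In CUTLL1, KOPTK1 and HPB-ALL the estimates turned sign between lines for NBN (F 216), BARD1 (F 41.0) and FANCC (F 37.0), which were called higher in CUTLL1 and KOPTK1 and lower in HPB-ALL. For BARD1 and FANCC the falls in HPB-ALL were small (-0.09 each) and close to the threshold. Of the 37 members called in HPB-ALL, 36 were kept with a pseudocount of 5 or no filter and 35 with quantile scaling. Which members were lost is not given here, so these counts do not show whether BARD1 and FANCC kept their calls. TP53BP1 (F 16.2) was called higher in CUTLL1 and lower in the other two.

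Genes that fell in all 3 lines, by different amounts, were RAD50 (F 45.7), FANCF (F 41.4), RAD51D (F 25.6), PALB2 (F 23.0), RBBP8 (F 12.4) and MDC1 (F 9.27), and HPB-ALL fell furthest in each of these 6. SLX4 (F 18.0) and BRIP1 (F 7.73) rose in all 3 lines and least in HPB-ALL. RECQL4 (F 5.58) rose most in HPB-ALL, and CHEK1 (F 5.88) rose most in KOPTK1.

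The other members were called in some lines and not in others. EME1 (F 18.7) and FANCA (F 6.58) rose in CUTLL1 and KOPTK1 but not in HPB-ALL. CHEK2 (F 12.8) fell in CUTLL1 and HPB-ALL, and FANCI (F 11.4) fell in HPB-ALL. XRCC3 (F 11.2) rose in KOPTK1, WRN (F 8.97) in CUTLL1, MRE11A (F 8.82) in HPB-ALL, and XRCC2 (F 5.70) in KOPTK1 and HPB-ALL. CUTLL1 and KOPTK1 each rest on 1 guide control, without which the contrast cannot be made, so the part of those 2 libraries in these differences cannot be told apart from that of the lines. Leaving out any 1 other library, 16 to 22 members passed.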

How the results depend on the processing

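No called member changed sign under any alternative run. Calls were kept under every one by 31 of 34 members with guides, 31 of 33 with ASOs and 25 of 36 in the joint comparison. The joint count of rising members fell from 23 to 15 with 1 mean per line and arm (10 fell), a fit with fewer values by construction. With ASOs alone, RAD51C was lost without a filter (adjusted p 0.0798), on recovered reads (0.110 in edgeR, 0.132 in DESeq2) and without any 1 of 5 of the 6 ASO libraries (0.0629 to 0.133). CHEK1 was lost there with quantile scaling (0.0667), the replicate block (0.0523) or no KOPTK1 ASO control (0.0537). With guides, RAD51C was lost without the KOPTK1 guide control (0.0621), EME1 without that library (0.0662) or the CUTLL1 guide control (0.0580), and XRCC2 without that of KOPTK1 (0.0800), HPB-ALL control 1 (0.0573) or HPB-ALL with guide 2 (0.0571). Without the KOPTK1 ASO control MRE11A, NBN, WRN and CHEK2 passed with ASOs, and without that of CUTLL1 XRCC2, XRCC3 and FANCG did. Where a lone control was left out, the targeted libraries of its experiment no longer bore on the estimate. Such runs show the remaining experiments, and not the weight of 1 library. XRCC3 also passed with ASOs with a pseudocount of 5, a mean of 100 or more or either scaling. BARD1 passed with guides without HPB-ALL control 1 or HPB-ALL with guide 1, TP53BP1 without the CUTLL1 guide control, and WRN passed jointly with quantile scaling (0.0491).

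Leaving out each library in turn gave 18 to 22 rising and 13 to 14 falling members with guides, 21 to 23 and 11 to 13 with ASOs, 22 to 24 and 13 to 14 in the joint comparison, and 41 to 42 that differed between control lines. In single experiments it gave 19 to 25 rising and 11 to 13 falling in CUTLL1 with guides, 21 to 24 and 13 in CUTLL1 with ASOs, 22 to 25 and 11 to 13 in KOPTK1 with guides, 22 to 24 and 11 to 12 in KOPTK1 with ASOs, and 18 to 19 and 16 to 18 in HPB-ALL. Guides minus ASOs gave 0 members in either direction. Without the lone control of an experiment, that experiment and the contrasts using it could not be fitted, so their ranges leave that library out. With guides, with ASOs and jointly, such runs were fitted and rest on the remaining experiments. Without a filter 1501 of all genes passed that test, and 1 did with a pseudocount of 5 or with quantile scaling.

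Quantile scaling moved the median of all genes with guides from -0.03 to 0.07. On recovered reads edgeR called 10045, 8388 and 10838 genes with guides, with ASOs and jointly, and DESeq2 called 9842, 7853 and 10600.

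The estimates that changed sign were uncalled as reported and did not pass with the changed sign. With ASOs, XRCC2, MRE11A and NBN passed without 1 of the controls, as above, with the sign as reported. They changed sign without the other control and did not pass there. With ASOs, TP53BP1 became -0.00317 with quantile scaling, -0.013 in edgeR and -0.00448 in DESeq2. ATR became -0.0060 with the replicate block and -0.0043 in edgeR, and FANCI became 0.0041 in DESeq2. In the joint comparison MRE11A became 0.031 with quantile scaling, 0.0028 with the replicate block, 0.017 in edgeR, 0.0093 in DESeq2 and 0.017 with 1 mean per line and arm. ATR became 0.0027 with quantile scaling. For members that changed sign when a library was left out, the estimates are given over the reported fit and all alternatives. With guides they ranged from -0.073 to 0.033 for XRCC3, from -0.0058 to 0.078 for WRN and from -0.062 to 0.00047 for ATR. With ASOs they ranged from -0.088 to 0.30 for XRCC2, -0.22 to 0.0094 for MRE11A, -0.036 to 0.28 for NBN, -0.026 to 0.050 for ATR and -0.069 to 0.084 for TP53BP1. Jointly they ranged from -0.035 to 0.049 for MRE11A, -0.12 to 0.047 for NBN and -0.029 to 0.0050 for ATR.

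The replicate numbers share only a number: deviations of same-numbered libraries correlated between -0.06 and 0.08 over 10 pairs. With the replicate block 23 members rose and 13 fell jointly, as without it, and 10275 genes were called in place of 10514.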

Other observations

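Genes of the other repair pathways, from lists apart from the 43, are given by their joint calls. These are to be read against all genes tested, of which 36.2% rose and 38.8% fell (median -0.03). Of 9 tested genes of non-homologous end joining, which rejoins broken ends without a template, none rose (0) and 7 fell (median -0.36). DNTT, the polymerase that adds bases at joints of antigen receptor genes, fell by 3.42, XRCC4, the ligase cofactor, by 1.05, and XRCC5, the end-binding Ku subunit, by 0.36. Of 14 nucleotide excision repair genes 8 rose and 4 fell (median 0.25). XPC, the damage sensor, rose by 0.87, while ERCC8 fell by 0.85 and GTF2H1 by 0.38.

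Mismatch repair genes were divided, with 4 of 8 rising and 3 falling (median 0.06, background 36.2% up and 38.8% down). PCNA, the sliding clamp, rose by 0.56 and MSH3 by 0.54. Of 16 base excision repair genes 6 rose and 6 fell (median 0.00). NTHL1, a glycosylase for oxidised bases, fell by 1.81 and UNG, the uracil glycosylase, by 0.51, and PARP1, a break sensor, rose by 0.28.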
